A study of Mus musculus with 11 samples.

Results

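The 46 genes described here encode the nuclear-made factors that mature, stabilise and translate the RNA of mitochondrial DNA, and were chosen by name as mitochondrial aminoacyl-tRNA synthetases (16 genes), RNA processing and stability factors (17), tRNA maturation and modification enzymes (5) and translation factors (8). Of these, 45 were found by symbol among the 36666 genes of the count table and Slirp was found under its older symbol 1810035L17Rik. Polyadenylated RNA was sequenced from the frozen cerebral hemisphere, cerebellum removed, of 11 male C57/Bl6 mice aged 1 year. The 7 mutator mice were homozygous for the D257A knock-in in Polg, the mitochondrial DNA polymerase, which impairs its proofreading. The 4 control littermates, from the same breeding of heterozygotes, were 3 WT/WT mice and 1 WT/D257A mouse, numbered 237, which therefore carried 1 mutant allele. The libraries held between 28249345 and 121182250 gene counts, with the deepest one in WT/WT mouse 205, and counts per exon bin were given for 10 mice, without mouse 237.

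Mitochondrial DNA is transcribed as long RNAs from which tRNAs, rRNAs and mRNAs are cut, and the mRNAs are then polyadenylated, stabilised and read by a dedicated ribosome. Each mitochondrial tRNA must be trimmed, given its terminal CCA and charged by an aminoacyl-tRNA synthetase before it can serve, and several are also modified at their wobble base. All of the proteins for these steps are imported from the cytosol, so their mRNAs belong to the nuclear genome and are not themselves subject to the mutated polymerase.

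Promoters of mitochondrial genes are known to hold binding sites of NRF-1 and of the ETS factor GABP, and the 3 promoters below are shown because they hold the most matches to these cores, or both kinds. They span 250 bases before to 50 bases after the start, from RefSeq on GRCm38.p6, with matches on either strand in capitals. The ETS core was searched as CCGGAAG, and the NRF-1 core is each run of capitals in the Fastkd3 window, read on either strand with 1 free base. These are the windows of Slirp (chr12:87443646-87443945, + strand), an RNA-binding partner of Lrpprc, of Fastkd3 (chr13:68581960-68582259, + strand), a member of the FASTK family of RNA-binding proteins, and of Mars2 (chr1:55236927-55237226, + strand), the methionyl-tRNA synthetase.
Slirp: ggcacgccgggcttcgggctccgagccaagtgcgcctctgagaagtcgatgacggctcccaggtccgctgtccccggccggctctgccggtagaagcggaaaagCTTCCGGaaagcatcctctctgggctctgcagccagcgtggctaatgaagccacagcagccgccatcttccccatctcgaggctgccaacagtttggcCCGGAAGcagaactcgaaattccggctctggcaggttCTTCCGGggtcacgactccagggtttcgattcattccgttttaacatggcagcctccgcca
Fastkd3: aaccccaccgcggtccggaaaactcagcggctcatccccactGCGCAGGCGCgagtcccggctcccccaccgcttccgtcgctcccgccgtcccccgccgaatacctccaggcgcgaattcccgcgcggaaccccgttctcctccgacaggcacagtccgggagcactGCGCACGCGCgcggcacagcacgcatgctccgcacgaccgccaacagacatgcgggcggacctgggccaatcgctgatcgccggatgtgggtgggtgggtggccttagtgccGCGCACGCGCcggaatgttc
Mars2: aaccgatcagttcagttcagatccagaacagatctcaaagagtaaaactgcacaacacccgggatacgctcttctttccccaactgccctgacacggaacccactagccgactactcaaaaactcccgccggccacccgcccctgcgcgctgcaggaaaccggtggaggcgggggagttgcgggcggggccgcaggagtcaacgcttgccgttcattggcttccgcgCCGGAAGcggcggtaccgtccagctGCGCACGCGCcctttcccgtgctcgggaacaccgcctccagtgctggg
The promoter table held 43 windows of 41 members. The NRF-1 core was in 5 of these windows (11.6%), against 4.6% of all 32851 windows, and the ETS core was in 12 (27.9%), against 8.86% of all windows. Both are descriptions of the letters in these windows, and not evidence of binding. Of the members plotted by mouse below, Fastk, Mtif2 and Tufm had an ETS core in their window.

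The first comparison asked whether the mRNAs of these factors differed between mutator and control cerebrum. None did by the criterion used, which was a quasi-likelihood p from edgeR, Benjamini-Hochberg adjusted over all 17983 genes tested, of less than 0.05. All 46 members were tested and 0 were called, where 1.24% of all genes were called. The member nearest to the threshold was Gtpbp3, at an adjusted p = 0.127. At an unadjusted p under 0.05 there were 4 members (8.70%), Gtpbp3, Pnpt1, Fastk and Fastkd1, where 15.8% of all genes passed. DESeq2 also called 0 members, with 4 at an unadjusted p under 0.05. The log2 fold change (mutator over control) was positive in 21 members and negative in 25, with a median of -0.02, beside a median of 0.00139 over all genes tested. In 45 of the 46 members the 95% interval of the log2 fold change, not adjusted for the number of genes, lay between -0.5 and 0.5, the exception being Lars2. The interval lay within those bounds in 13217 of all 17983 genes tested. The mutator and control values did not overlap in 0 members, where this was the case in 2.62% of all genes.

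The levels below are read counts scaled to library size with TMM factors, as CPM. Apart from Lars2, the members had mean levels between 3.51 and 81.4 CPM, and each count of them in each mouse lay between 101 and 10003. The standard errors of the log2 fold changes had a median of 0.06 over the members, and 0.08 over all genes tested. Relative to the control mean, the median over the members of the log2 level was between -0.02 and 0.02 in the 4 control mice and between -0.05 and 0.00320 in the 7 mutator mice. The mice of both groups thus overlapped in this summary. In bulk tissue, fewer cells of a type and less RNA per cell cannot be told apart.

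**Figure D1:**
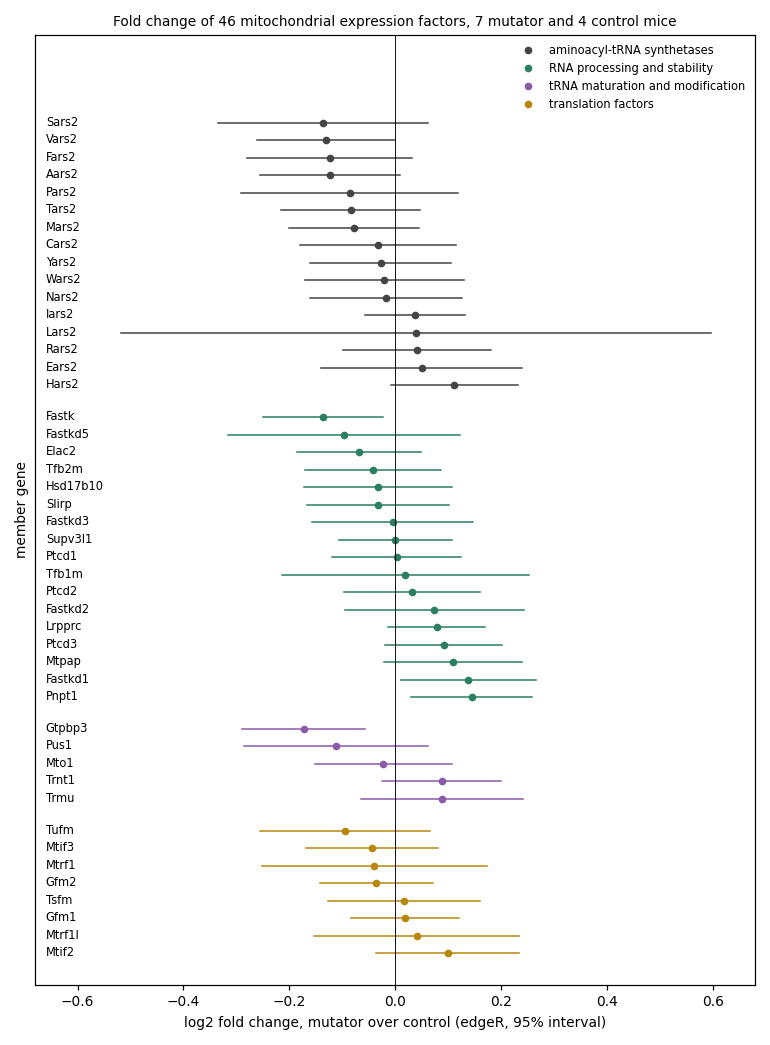
Log2 fold change of each of the 46 members (mutator over control, 7 and 4 mice) with its unadjusted 95% interval from edgeR on the horizontal axis, ordered within 4 role groups marked by colour. Most intervals cover 0, those of Gtpbp3, Fastk, Pnpt1 and Fastkd1 do not, and that of Lars2 is the widest, from -0.52 to 0.60.

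Of the 5 enzymes of tRNA maturation and modification, 2 had a positive and 3 a negative log2 fold change, with a median of -0.02 and 0 called. Gtpbp3 (ENSMUSG00000007610, mm9 chr8:74012002-74023482) acts with Mto1 in adding a taurine-derived group to the wobble uridine of several mitochondrial tRNAs. Its level was 24.8, 29.1, 25.4 and 26.7 CPM in control mice 205, 237, 239 and 246. In the mutator mice it was at lowest 22.0, at median 23.8 and at highest 24.9 CPM. The highest mutator mouse thus stood just above the lowest control mouse, WT/WT mouse 205, and the groups overlapped by that pair. The means were 26.5 ± 1.88 CPM (SD, n = 4) and 23.5 ± 1.02 CPM (n = 7), and the log2 fold change was -0.17 (SE 0.06, edgeR adjusted p = 0.127).

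Mto1, the partner of Gtpbp3, was at a log2 fold change of -0.02 (SE 0.06). Trmu, which puts sulphur on the same wobble uridines, was at 0.09 (SE 0.07) and Pus1, a pseudouridine synthase, at -0.11 (SE 0.08). Trnt1, the enzyme that adds the terminal CCA to tRNAs of both the mitochondria and the cytosol, was at 38.4, 34.2, 40.4 and 38.2 CPM in control mice 205, 237, 239 and 246. Its mutator values were 37.1 CPM at lowest, 41.1 at median and 41.7 at highest. Most mutator mice were above the control mice but the ranges overlapped, and the log2 fold change was 0.09 (SE 0.05, edgeR adjusted p = 0.450), or 0.04 without WT/D257A mouse 237. Per kilobase of exon, Trnt1 also had the highest control level of the group, 9.77 ± 0.671 CPM per kb (SD, n = 4), and Trmu the lowest, 3.84 ± 0.373.

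Of the 17 RNA processing and stability factors, 10 had a positive and 7 a negative log2 fold change, with a median of 0.00283, and 0 were called. Pnpt1 (ENSMUSG00000020464, mm9 chr11:29030744-29061828) encodes polynucleotide phosphorylase, an exoribonuclease of mitochondria. It was at 28.1, 25.8, 25.9 and 24.8 CPM in control mice 205, 237, 239 and 246. In the mutator mice the lowest value was 27.1, the median 28.9 and the highest 31.7 CPM. All mutator mice were above the 3 control mice other than 205, and mouse 205 lay inside the mutator range. Its log2 fold change was 0.14 (SE 0.05, edgeR adjusted p = 0.195). Supv3l1, the helicase that works with this nuclease in breaking down RNA, was at 22.5 ± 1.141 CPM in control (SD, n = 4) and 22.6 ± 0.471 CPM in mutator mice (n = 7).

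Fastk and Fastkd1 belong to 1 family of RNA-binding proteins that act on individual mitochondrial RNAs. Fastk (ENSMUSG00000028959, mm9 chr5:23944258-23951105) was at 66.0, 77.7, 72.6 and 76.6 CPM in control mice 205, 237, 239 and 246, and in the mutator mice at lowest 63.0, at median 65.5 and at highest 73.3 CPM. Control mouse 205 was again the one that lay among the mutator mice, and 1 mutator mouse was above control mouse 239. The log2 fold change of Fastk was -0.14 (SE 0.05, edgeR adjusted p = 0.221). Fastkd1 (ENSMUSG00000027086, mm9 chr2:69524872-69551573) was at 17.6, 14.9, 15.4 and 15.2 CPM in control mice 205, 237, 239 and 246, and in the mutator mice at lowest 16.4, at median 17.5 and at highest 18.1 CPM. Here too all mutator mice were above the control mice other than 205. Its log2 fold change was 0.14 (SE 0.06, edgeR adjusted p = 0.275), so the pair had opposite signs. The other family members, none of them past either threshold, were Fastkd2 at 0.07 (SE 0.08), Fastkd3 at -0.00439 (SE 0.07) and Fastkd5 at -0.10 (SE 0.11). Reads in the overlap of Fastkd5 with Ubox5 and of Fastk with a U6 RNA gene could not be told apart by strand, since the library kit does not mark it. Whether the counting left such reads out or gave them to a gene is not known.

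**Figure D2:**
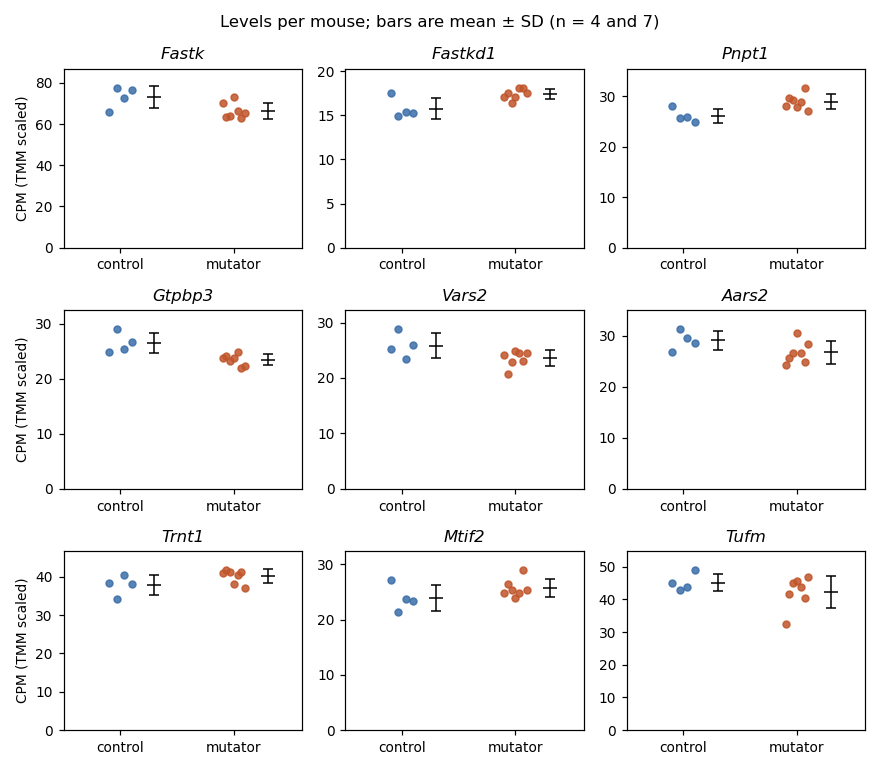
Level in CPM (vertical axis, from 0) of 9 members in each mouse, with 4 control mice in blue and 7 mutator mice in orange; black bars are mean ± SD. In Fastk, Fastkd1, Pnpt1 and Gtpbp3 the leftmost control point, WT/WT mouse 205, lies within or beside the mutator range, and no panel shows separate groups.

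The factors that hold mature mRNAs, Lrpprc and its partner Slirp, were at log2 fold changes of 0.08 (SE 0.04) and -0.03 (SE 0.06). Mtpap, which adds their poly(A) tails, was at 0.11 (SE 0.06). The enzymes that cut tRNAs out of the long transcripts include Elac2, at -0.07 (SE 0.06), and Hsd17b10, a subunit of mitochondrial RNase P, at -0.03 (SE 0.07). Of the pentatricopeptide proteins, Ptcd1 was at 0.00283 (SE 0.06), Ptcd2 at 0.03 (SE 0.06) and Ptcd3, which is bound to the small ribosomal subunit, at 0.09 (SE 0.05). Tfb1m, a methyltransferase of the small rRNA, was at 0.02 (SE 0.11), and Tfb2m, an initiation factor of mitochondrial transcription, at -0.04 (SE 0.06). None of these passed an unadjusted p of 0.05. The highest control level per kilobase of exon was that of Ptcd3 (17.9 ± 0.948 CPM per kb, SD, n = 4) and the lowest that of Fastkd5 (1.21 ± 0.126).

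Of the 16 mitochondrial aminoacyl-tRNA synthetases, each of which charges the tRNA of the amino acid in its name, 5 had a positive and 11 a negative log2 fold change, with a median of -0.03 and 0 called. None passed an unadjusted p of 0.05 either. Apart from Lars2, the values ran from -0.14 in Sars2 to 0.11 in Hars2. The lowest unadjusted p was that of Vars2, the valyl enzyme, at 25.2, 28.8, 23.4 and 25.9 CPM in control mice 205, 237, 239 and 246, and at lowest 20.7, at median 24.1 and at highest 24.9 CPM in the mutator mice. The highest control value was that of the WT/D257A mouse, and the groups overlapped. Vars2 had a log2 fold change of -0.13 (SE 0.06, edgeR adjusted p = 0.318), or -0.07 without mouse 237.

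Aars2, the alanyl enzyme, was at 26.8, 31.3, 29.5 and 28.6 CPM in control mice 205, 237, 239 and 246, and at lowest 24.2, at median 26.5 and at highest 30.5 CPM in the mutator mice. On the log2 scale the groups differed by -0.12 (SE 0.06, edgeR adjusted p = 0.358), with overlapping groups. The other negative values were those of Fars2 (-0.12, SE 0.07), Pars2 (-0.09, SE 0.10), Tars2 (-0.08, SE 0.06), Mars2 (-0.08, SE 0.06), Cars2 (-0.03, SE 0.07), Yars2 (-0.03, SE 0.06), Wars2 (-0.02, SE 0.07) and Nars2 (-0.02, SE 0.07). The positive ones were those of Ears2 (0.05, SE 0.09), Rars2 (0.04, SE 0.07), Iars2 (0.04, SE 0.05) and Lars2, described below. Per kilobase of exon, the control level was lowest in Wars2 (1.50 ± 0.0165 CPM per kb, SD, n = 4) and, apart from Lars2, highest in Aars2 (8.68 ± 0.554). The row of the proline tRNA, mt-Tp, was named outside the rule for the other genes, and had the lowest adjusted p of all genes tested. It was at 3.20 ± 0.895 CPM in control (n = 4) and 126 ± 24.5 CPM in mutator mice (n = 7). Its log2 fold change was 5.23 (SE 0.24, edgeR adjusted p = 3.5e-05), beside the -0.09 of Pars2, the prolyl-tRNA synthetase. Reads from either strand of that place could have been assigned to mt-Tp. The RNA sequenced was polyadenylated, so this row does not measure the mature tRNA.

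Of the 8 translation factors, 4 had a positive and 4 a negative log2 fold change, with a median of -0.00952 and 0 called, and none passed an unadjusted p of 0.05. Mtif2, the initiation factor that places the initiator tRNA, was at 27.1, 21.4, 23.7 and 23.3 CPM in control mice 205, 237, 239 and 246, and at lowest 23.9, at median 25.3 and at highest 28.9 CPM in the mutator mice. Control mouse 205 lay above all but the highest mutator mouse. Mtif2 had a log2 fold change of 0.10 (SE 0.06, edgeR adjusted p = 0.481), which was 0.17 without mouse 205 and 0.05 without mouse 237. Tufm, the elongation factor that brings charged tRNAs to the ribosome, was at 45.1, 42.7, 43.9 and 48.9 CPM in control mice 205, 237, 239 and 246. Its mutator values were 32.6 CPM at lowest, in mouse 207, 43.8 at median and 46.9 at highest. The log2 fold change was -0.09 (SE 0.08, edgeR adjusted p = 0.586), which was -0.04 without mouse 207 and -0.06 without control mouse 246.

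Tsfm, which recharges the Tufm protein with GTP, was at 0.02 (SE 0.07), and Gfm1, the translocation factor, at 0.02 (SE 0.05). Gfm2, which splits the ribosome for recycling, was at -0.04 (SE 0.05) and the initiation factor Mtif3 at -0.04 (SE 0.06). The release factors Mtrf1 and Mtrf1l were at -0.04 (SE 0.10) and 0.04 (SE 0.09). Per kilobase of exon, Tufm had the highest control level of the group (25.4 ± 1.51 CPM per kb, SD, n = 4) and Mtrf1l the lowest (2.10 ± 0.0826).

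In a list of 52 other genes of mitochondrial transcription, RNA handling and translation, 25 log2 fold changes were positive and 27 negative, with a median of -0.00465, and 0 were called by edgeR. The 2 with the lowest unadjusted p were Rbfa (listed as 1110032A13Rik), a factor of ribosome assembly, at -0.14 (SE 0.07, adjusted p = 0.306), and Guf1, an elongation factor homologue, at 0.11 (SE 0.05, adjusted p = 0.315). These were also the 2 members of that list under an unadjusted p of 0.05. Polg was at 66.1 ± 2.98 CPM in control (SD, n = 4) and 63.9 ± 4.18 CPM in mutator mice (n = 7), a log2 fold change of -0.05 (SE 0.05, edgeR adjusted p = 0.707). Since the knock-in changes 1 codon of that gene, its level does not check the labels.

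The members with negative values tended to be rich in G and C and those with positive values poor in them. Across the 46 members, Spearman's rho between the G and C percentage of the exons and the log2 fold change was -0.642, beside -0.392 across the 17029 tested genes with a known composition. Both are descriptions across genes, which share the same 11 libraries. Of the 23 members above the median composition of 47.9% G and C, 16 had a negative log2 fold change (median -0.07), against 9 of the other 23 (median 0.04). Gtpbp3 (55.7%), Fastk (57.6%), Vars2 (58.4%) and Aars2 (60.0%) were on the rich side, and Pnpt1 (39.2%), Trnt1 (40.0%), Mtif2 (40.7%) and Fastkd1 (45.1%) on the poor side.

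This contrast varied among mice of 1 group as well. The median log2 level, relative to the control mean, of the rich members minus that of the poor members was -0.12, 0.09, -0.00376 and 0.02 in control mice 205, 237, 239 and 246. In the mutator mice it was at lowest -0.22, in mouse 211, at median -0.09 and at highest 0.00533. Over all genes with a known composition, the most GC-rich 25% minus the poorest 25% gave -0.13, 0.17, -0.04 and 0.00379 in the same control mice, and between -0.33, in mouse 248, and -0.02 in the mutator mice. Mouse 205 thus lay on the side of the mutator mice, and WT/D257A mouse 237 on the other. A correction for composition in each library was an alternative chosen after seeing the data. It takes out any group difference that follows composition, whatever its source, so a shrinking at the ends of that scale was built in. With it, the log2 fold changes shrank to -0.05 (SE 0.04) in Fastk, 0.05 (SE 0.04) in Pnpt1, -0.04 (SE 0.05) in Vars2 and -0.01 (SE 0.05) in Aars2. Those of Fastkd1 and Gtpbp3 became 0.10 (SE 0.05) and -0.11 (SE 0.05), and Gtpbp3 remained the 1 member at an unadjusted p under 0.05, with an edgeR adjusted p = 0.303.

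**Figure D3:**
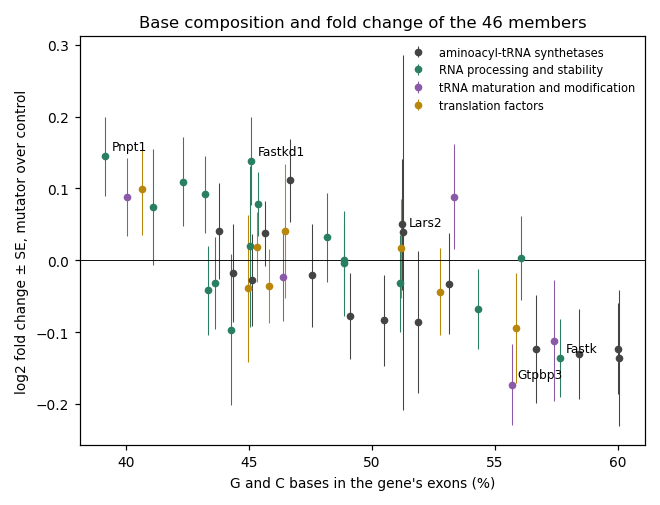
Share of G and C bases in the exons of each of the 46 members (horizontal axis, %) against its log2 fold change, mutator over control, with its SE (vertical axis), coloured by role. The points fall from Pnpt1 (39.2%, 0.14) to the members near 60%, which lie below 0, and the long bar is Lars2.

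Lars2, the leucyl-tRNA synthetase (ENSMUSG00000035202, mm9 chr9:123276058-123371782), stood apart from the other members in level and in spread. It held between 93502 and 391811 counts per mouse, and its level per kilobase in control mice was 847 ± 56.4 CPM per kb (SD, n = 4). It was at 3096, 3111, 3539 and 3398 CPM in control mice 205, 237, 239 and 246. In the mutator mice it was at 5208, 2661, 3062, 3412, 1966, 2738 and 4583 CPM in mice 207, 211, 217, 236, 240, 248 and 249. The mutator mice thus lay on both sides of the control range, with SDs of 1142 CPM (n = 7) and 219 CPM (n = 4). The log2 fold change was 0.04 (SE 0.25, 95% interval -0.52 to 0.60, edgeR adjusted p = 0.961), and it turned negative without mutator mouse 207 (-0.10) or without mouse 249 (-0.05).

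The exon counts showed where in the gene these reads lay. The group of 23 bins that holds Lars2 also holds ENSMUSG00000089511, an overlapping gene that the annotation used here does not list. Bins 1 to 20 held between 612 and 2215 counts per mouse together, whereas bins 21, 22 and 23 held between 114200 and 479635. In that annotation Lars2 has 21 exons, and if the bins follow them in order, bins 21 to 23 lie in the last one (mm9 chr9:123370617-123371782, + strand), which holds the end of the coding sequence and the 3′ untranslated region. On that order the counts step up between the exon before the last and the last one, and the end of the coding sequence is shown. Bin boundaries were not known, so the place of the step was not settled. First is the whole of the exon before the last (chr9:123368610-123368737), then the coding part of the last exon (chr9:123370617-123370796) with the stop codon in capitals.
Lars2 exon before the last: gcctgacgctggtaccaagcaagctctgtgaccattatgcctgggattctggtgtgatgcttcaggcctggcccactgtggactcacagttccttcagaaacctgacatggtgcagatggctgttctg
Lars2 last exon, coding part: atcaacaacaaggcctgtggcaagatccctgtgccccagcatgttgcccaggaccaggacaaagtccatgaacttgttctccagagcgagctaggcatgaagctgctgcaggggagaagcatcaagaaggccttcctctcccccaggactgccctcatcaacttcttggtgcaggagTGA
The share of the Lars2 counts in bins 21 to 23 was 99.5%, 99.6% and 99.5% in WT/WT mice 205, 239 and 246, and at lowest 99.2%, in mouse 240, and at highest 99.7%, in mouse 207, among the mutator mice. The means were 99.53% ± 0.0631 (SD, n = 3) and 99.50% ± 0.150 (n = 7), and differed by -0.0261 percentage points, less than the spread between mice (exact two-sided permutation test, p = 0.833, smallest possible p = 0.00833). In bins 1 to 20 alone, summed and fitted as a gene in the same 10 mice after the bins were seen, Lars2 was at 20.9, 20.3 and 25.3 CPM in WT/WT mice 205, 239 and 246 and between 20.3 and 22.8 CPM in the mutator mice. There its log2 fold change was -0.02 (SE 0.07, edgeR adjusted p = 0.955), with an SE near that of the other members and a level inside their range. The value of Lars2 from the whole gene therefore describes bins 21 to 23.

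**Figure D4:**
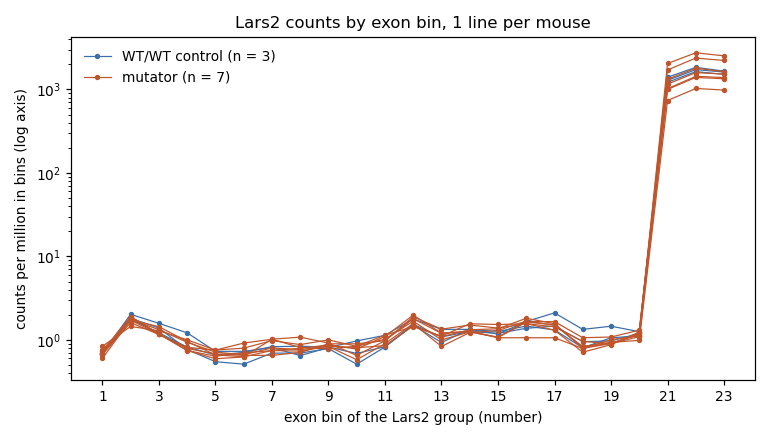
Level in CPM of all bin counts (vertical log axis) in each of the 23 exon bins of the Lars2 group (horizontal axis), 1 line per mouse, with 3 WT/WT controls in blue and 7 mutators in orange. Bins 1 to 20 lie near 1 in all 10 mice, and bins 21 to 23 lie between 738 and 2751 with the widest spread among mutator mice.

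Among 13522 other genes with a mean of at least 2 CPM, the row whose log2 level was most like that of Lars2 over the 11 mice was AC137844.1, with Pearson's r = 0.995, and the next was mmu-mir-2135-3.3 (r = 0.990). These were chosen for their likeness, so r is a description, and without mice 207 and 240, the ones farthest from the median log2 level of Lars2, it was 0.986 and 0.978. Lars2 ran over a 2.65-fold range of levels, AC137844.1 over a 2.90-fold range, and their ratio between 2.92 and 3.33 in every mouse. AY036118, a gene on chromosome 17, gave r = 0.918, or 0.762 without mice 207 and 240. The large mitochondrial rRNA mt-Rnr2, which had been picked for a supposed likeness to part of Lars2, ran between 2980.1 and 3982 CPM, with r = 0.336 (permutation p = 0.312) and Spearman's rho = 0.455 (permutation p = 0.164, 1 relation tested, n = 11), and r = 0.588 without mice 207 and 240. The last exon gave 0 alignments to the mitochondrial chromosome of mm9, and 42 further partial alignments elsewhere in the genome. In the alignments whose positions were kept, the match began at base 294 of the exon or later, past the coding part shown above. Whether such copies contribute to the counts was not tested.

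**Figure D5:**
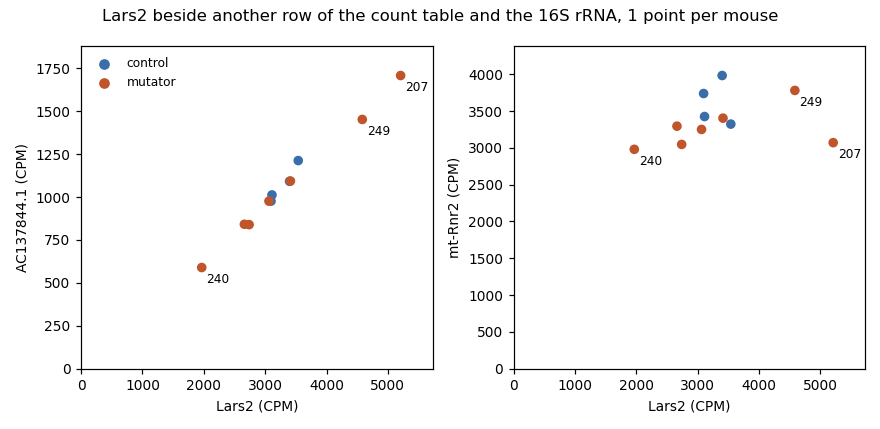
Level of AC137844.1 (left) and of the large mitochondrial (16S) rRNA mt-Rnr2 (right), in CPM on the vertical axes, against that of Lars2 in CPM, 1 point per mouse, with 4 control mice in blue and 7 mutator mice in orange. AC137844.1 follows Lars2 from mouse 240 (1966 CPM of Lars2) to mouse 207 (5208 CPM), whereas mt-Rnr2 stays between 2980.1 and 3982 CPM.

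The second comparison asked whether the use of single exon bins differed, that is, a bin's log2 change beyond that of the rest of its gene. In limma's diffSplice on the 7 mutator and 3 WT/WT mice, 829 bins of 45 members were tested and 0 were called, where 0.0121% of all 206930 bins tested were called. At an unadjusted p under 0.05 there were 16 member bins (1.93%), where 2.69% of all bins passed. The edgeR test diffSpliceDGE also called 0 member bins, with 15 at an unadjusted p under 0.05. Mars2, which has a single bin, could not be tested.

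The lowest unadjusted p was that of bin 29 of Elac2, the nuclease that trims the end of tRNAs. It was at 1.95, 2.02 and 1.58 CPM of all bin counts in WT/WT mice 205, 239 and 246, and between 1.20 and 1.71 in the mutator mice. Its usage change was -0.32 (SE 0.11, limma adjusted p = 1), with overlapping groups. Bins 28 and 30 of Elac2, named after their values were seen, were at -0.30 (SE 0.12) and -0.23 (SE 0.11), and were like bin 29 not called. Next was bin 41 of Lrpprc, at 1.91, 2.05 and 2.23 CPM in WT/WT mice 205, 239 and 246 and between 2.31 and 2.94 CPM in the mutator mice, with a usage change of 0.27 (SE 0.10, limma adjusted p = 1). The third was bin 16 of Mto1, with a usage change of 0.83 (SE 0.33, limma adjusted p = 1). Without WT/WT mouse 205 the usage changes of these 2 bins were 0.14 and 0.48. Bin 16 of Mto1 lay between 0.104 and 0.162 CPM in the WT/WT mice and between 0.164 and 0.305 in the mutator mice, which is a low count at these depths.

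Some library facts bear on all of these values. Mutator mouse 248 had 3.00 gene counts per listed aligned read, against 0.744 to 0.775 in the other 10 mice, and the lowest share of aligned reads (76.3%). Without it, edgeR called 0 members and gave 3 at an unadjusted p under 0.05. Marker lists of neurons, astrocytes, oligodendrocytes, microglia, endothelium, choroid plexus, red blood cells and cerebellar neurons held 0 genes called by edgeR. Over all genes tested, 1.24% were called. Where 15.8% of all genes passed an unadjusted p under 0.05, 12 markers did, which is a larger share of the markers tested. Of those tested, they were 1 of 4 neuronal, 1 of 5 astrocyte, 2 of 5 oligodendrocyte and 4 of 5 microglial markers. Further ones were 2 of 5 endothelial and 2 of 5 choroid plexus markers, with 0 of 4 red blood cell and 0 of 2 cerebellar ones. The microglial list had a median log2 fold change of -0.20. Summed without TMM scaling, the neuronal markers were at 5015 to 5282 CPM in control and 4834 to 5206 CPM in mutator mice, and the microglial markers at 187 to 235 and 176 to 206 CPM. The astrocyte markers were at 1096 to 1209.7 and 1101 to 1324 CPM, those of oligodendrocytes at 4509 to 5165 and 4508 to 6302, of endothelium at 134 to 157 and 138 to 193, of choroid plexus at 515 to 689 and 532 to 742, and of red blood cells at 52.0 to 175 and 80.9 to 226 CPM. The cerebellar markers, of a part removed at dissection, were at 0.956 to 1.19 CPM in control and up to 7.08 CPM in mutator mice. Their part in the values of the members was not tested.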

How the data were processed

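Polyadenylated cerebral RNA of 11 mice was sequenced as paired ends, with 6 libraries per pool; the labels do not say which. Per the labels, the tools were CASAVA 1.7.1, TopHat2 2.0.6, Bowtie2 2.0.2.0, HTSeq 0.5.3p9 and DESeq 1.14.0, on mm9. The authors counted reads per Ensembl gene and per bin of a flattened annotation and deposited raw counts, without normalization. Of the reads tallied in the exon counting, those assigned to no bin, for any reason, were left out. Their share was 20.62% to 20.77% in the 3 WT/WT mice and 20.78% to 23.4% in the 7 mutator mice. Every mutator mouse thus lay above the WT/WT mice, and the part of this in the bin results was not tested. The read totals that the authors deposited (other unit) served only to compare depths. Their tables of fold changes and p-values from DESeq and DEXSeq were not used.

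Gene counts were tested with edgeR 4.0.16 (R 4.3.3, filterByExpr, TMM, robust quasi-likelihood), mutator against control. Standard errors came from the log2 fold change and F statistic. Overlap was judged on log2 CPM with a prior count of 2. Exon bins were tested with limma 3.58.1 (voom, diffSplice). DESeq2 1.42.0, RLE factors, no filter, only genes with a mean count of 10 or more, log2 total count as a covariate, WT/WT controls only and each mouse left out were the gene alternatives. For bins they were diffSpliceDGE, only bins with a mean count of 10 or more, no merged groups, and each mouse left out. A per-library lowess correction on exon G and C content (span 0.3), and Lars2 from bins 1 to 20, were added after seeing the data. Exon lengths, positions and composition came from GENCODE vM1 on mm9, which is later than the authors' Ensembl release, so bin boundaries are not given. Alignments of the last Lars2 exon used BLAST+ 2.17.0 (word 7 and E-value 0.001 on the mitochondrial chromosome, megablast with word 16 and 1e-05 on the genome). Permutation tests used scipy 1.17.1.

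The scripts were tested on simulated gene counts, 200 of them changed 2-fold: edgeR found all 200 and made 12 wrong calls (17930 genes), DESeq2 found 200 and made 25 (27170 genes). Of 200 bins changed alike (34785 bins), limma found 195, with 31 wrong calls, and diffSpliceDGE 181, with 108. The changed genes and bins were drawn from those with higher counts, and the same spread between mice was set for all. A 2-fold change is larger than that of any member. These rates thus do not tell how often smaller changes would be found. Mice were grouped by the labelled genotype. The edgeR and limma p-values set a group difference against the spread between these mice, estimated with information shared across genes or bins. Counts of a gene with 101 reads carry more counting error than those of one with 10003.

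The members and gene lists were chosen with earlier results of these data known. Named were members at an adjusted or unadjusted p under 0.05 and for the 2 with the lowest p in each role group (both with values by mouse), the highest and lowest level per kilobase, the 2 other pathway genes and 3 exon bins of lowest p, Lars2 and Polg. Lars2 was planned beside mt-Rnr2. The row mt-Tp was named outside this rule.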

Additional observations from a re-analysis of the deposited data

Results flagged for a closer look

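In 5 of 92 sets of values (46 members in each of the 2 groups), 1 mouse lay far from the rest of its group by Dixon's test at the 95% level, which is 5.43% where chance flags about 1 in 20. Mutator mouse 207 accounted for 3 of them. It was at 10.2 CPM for Cars2, where the other mutator mice were at 11.1 to 11.6, at 66.7 CPM for Iars2 (others 59.3 to 61.9) and at 10.7 CPM for Sars2 (others 7.89 to 9.09). WT/D257A mouse 237 was at 7.25 CPM for Ears2, where the other control mice were at 8.43 to 8.60. Mutator mouse 240 was at 14.0 CPM for Mtif3 (others 12.9 to 13.3). None of these 5 members was called by edgeR with or without any mouse.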

How the results depend on the processing

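No member was called under any of 17 alternatives for gene counts, in which between 1 and 9 members were at an unadjusted p under 0.05, the lowest adjusted p of any member was between 0.0765 and 0.475, and the median log2 fold change of the members lay between -0.0231 and -0.00439. Leaving out each mouse moved that median between the same bounds. Over all genes, 223 were called, 615 with DESeq2, 346 with no filter, 134 with the composition correction and 50 to 412 with each mouse left out (50 without WT/D257A mouse 237, 412 without WT/WT mouse 205). No member bin was called under any of 13 alternatives, while bins called among all numbered 25, 6 without merged groups and 2 to 281 with each mouse left out (2 without mouse 239, 281 without mouse 205). Lars2 ran from -0.0965 to 0.138 with each mouse left out, negative only without mouse 207 (-0.0965) or 249 (-0.0485), and was at -0.0215 in bins 1 to 20, and its share in bins 21 to 23 differed between groups by -0.0604 to 0.0163 percentage points with each mouse left out; neither was called in any of these. Over the 17 alternatives, 30 members kept the sign of their log2 fold change and 16 took both signs; among the 9 members plotted by mouse, the sign was kept. Without WT/D257A mouse 237, the adjusted p of Gtpbp3 was 0.491, and Fastk and Fastkd1 were no longer at an unadjusted p under 0.05. No paired analysis was possible because the labels give no number shared by mice of both groups. Changes smaller than the intervals given could not be told from the spread between mice.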
